A study of Homo sapiens with 12 samples.

Results

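The genes described here are 10 members of the endoplasmic reticulum (ER) folding and stress machinery: the chaperones HSPA5, HSP90B1, SDF2L1, CALR and CANX, the disulfide isomerases PDIA4 and PDIA6, the co-chaperone DNAJB9, the degradation factor HERPUD1 and the transcription factor XBP1. They were taken by gene symbol as a list of ER chaperones and targets of the unfolded protein response, and are 10 of the 53712 named genes in the count table. All 10 passed the filter on low counts, among 17228 genes tested. H9, an established human embryonic stem cell line, was grown in RSeT, a medium used to move such cells towards a naive state, and its polyadenylated RNA was sequenced.

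The groups differed in the transfected oligonucleotide. ASO-L1 is the antisense oligo against the LINE1 retrotransposon, SO-L1 is an oligo named after the same element, whose name the labels do not spell out and which is read here as a second control, and ASO-Ctr is the control antisense oligo, each given at 25 nM. All 3 groups also received 10 nM DZNep, which lowers histone methylation, and 5 nM TSA, a histone deacetylase inhibitor, until harvest 48 h after transfection. For the first 24 h all 3 groups were also exposed to 0.7 uM trans-ISRIB, 5 uM emricasan and 10 uM Y-27632. Trans-ISRIB counteracts the translational arm of the integrated stress response, emricasan inhibits caspases, and Y-27632 inhibits ROCK. Cells were harvested without sorting, so transfected and untransfected cells were measured together, and all came from 1 cell line. Each group had 4 libraries, numbered 1 to 4 in the labels. Nothing in the labels says that the libraries came from separate cultures, so the p-values measure only the spread between these libraries. LINE1 RNA itself was not analysed here.

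The ER folds and quality-controls proteins that enter the secretory pathway. When unfolded proteins build up there, the sensors IRE1, PERK and ATF6 start the unfolded protein response. IRE1 splices XBP1 mRNA, and spliced XBP1 and cleaved ATF6 switch on chaperone and degradation genes, while PERK phosphorylates eIF2alpha and favours translation of ATF4. Gene counts show the amount of XBP1 mRNA and cannot show its splicing.

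Spliced XBP1 and ATF6 are known to act through the ER stress response element, ERSE, so the promoters are shown for the most changed gene, HERPUD1, the chaperone with the largest decrease, HSP90B1, and the classical target, HSPA5. The sequences are RefSeq windows of build GRCh38.p14, from 250 bases before to 50 bases after the annotated start, 5′ to 3′ on the strand of the gene. Capitals mark ERSE matches in HSP90B1 and HSPA5 and the ERSE-II match in HERPUD1. HERPUD1 lies on the plus strand at chr16:56931892-56932191, HSP90B1 on the plus strand at chr12:103930160-103930459, and HSPA5 on the minus strand at chr9:125241294-125241593.
HERPUD1: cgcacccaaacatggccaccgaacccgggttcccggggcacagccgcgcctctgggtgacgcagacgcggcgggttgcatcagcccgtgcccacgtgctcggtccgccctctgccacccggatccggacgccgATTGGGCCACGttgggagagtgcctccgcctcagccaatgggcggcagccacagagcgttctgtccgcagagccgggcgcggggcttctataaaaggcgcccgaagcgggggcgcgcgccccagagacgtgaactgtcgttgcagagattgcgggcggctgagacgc
HSP90B1: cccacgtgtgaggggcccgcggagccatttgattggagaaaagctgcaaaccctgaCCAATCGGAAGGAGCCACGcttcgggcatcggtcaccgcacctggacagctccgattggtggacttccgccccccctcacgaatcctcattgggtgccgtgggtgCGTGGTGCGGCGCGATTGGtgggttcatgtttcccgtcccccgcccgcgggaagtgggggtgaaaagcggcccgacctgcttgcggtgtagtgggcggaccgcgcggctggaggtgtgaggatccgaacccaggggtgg
HSPA5: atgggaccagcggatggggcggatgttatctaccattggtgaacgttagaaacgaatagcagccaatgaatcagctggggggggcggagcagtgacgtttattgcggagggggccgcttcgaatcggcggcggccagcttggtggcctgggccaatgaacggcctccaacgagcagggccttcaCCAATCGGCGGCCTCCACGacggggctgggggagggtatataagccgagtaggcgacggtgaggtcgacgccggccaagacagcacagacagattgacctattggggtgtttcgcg

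ERSE was searched on both strands as CCAAT followed, after 9 free bases, by CCACG. It was present in 6 of the 10 genes, against 25 of 27305 genes (0.0916%) with a window in the same table. The 10 genes were taken as chaperones and targets of the response that acts through this element, so many matches were built into the list. The counts of this and the other motifs describe the list and are no test of enrichment. HSP90B1 held 2 copies, at positions -194 to -176 and -89 to -71 from the start, and HSPA5 held 1 copy at -66 to -48. The other 4 genes held the following matches, written in the orientation of the motif with the fixed letters in capitals to show how far the spacers differ.
CALR: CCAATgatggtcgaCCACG
PDIA6: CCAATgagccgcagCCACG
XBP1: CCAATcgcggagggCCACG
CANX: CCAATcttcacactCCACG

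The CALR match lay on chromosome 19 at -225 to -207 and the PDIA6 match on chromosome 2 at -86 to -68. The XBP1 match lay on chromosome 22 at -52 to -34, and the CANX match on chromosome 5 at -189 to -171 from 1 of its 4 annotated starts, with the same letters in 3 of the 4 windows. ERSE-II was searched on both strands as ATTGG and CCACG with 1 free base between them, where ATTGG is a CCAAT box read on the other strand. It occurred in HERPUD1 at -117 to -107 and in SDF2L1 at -188 to -178, against 19 of 27305 genes (0.0696%). These are the 2 matches.
HERPUD1: ATTGGgCCACG
SDF2L1: ATTGGtCCACG

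PDIA4 and DNAJB9 held neither element in these windows. The core of the XBP1 site, TGACGTGG, was in none of the 10 genes, against 253 of 27305 genes (0.927%). A sequence of the ATF4 type, TGATGNAA, was in HERPUD1 only, at -176 to -169, against 1217 of 27305 genes (4.46%). The shorter TGACGT, which is part of the XBP1 core, was in HSPA5 only, at -158 to -153, against 2633 of 27305 genes (9.64%). A match is a description of the letters and not a measured binding site. Counts were made on the hg19 build, so these GRCh38.p14 positions are given for the sequences alone.

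**Figure D1:**
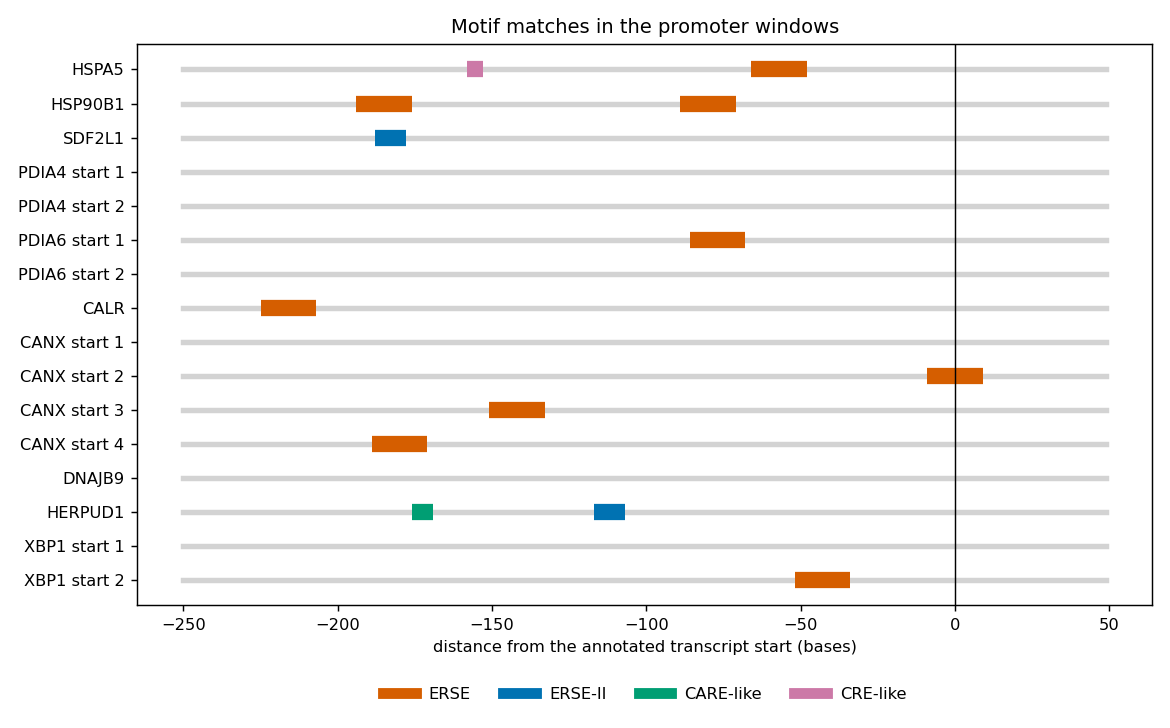
Motif matches in the 16 RefSeq promoter windows of the 10 genes. The x axis is the distance in bases from the annotated start, grey lines are the windows, and coloured blocks are ERSE, ERSE-II, an ATF4-type motif (CARE-like) and a short CRE-like motif. ERSE blocks stand in 6 genes and ERSE-II blocks in HERPUD1 and SDF2L1, and PDIA4 and DNAJB9 hold none.

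Library totals ran between 20367989 and 32180891 counts. Values are given as CPM, the count scaled by library size after TMM correction, which adjusts for differences in library composition. The 10 genes took 0.516% ± 0.0445 of all counts in ASO-L1, 0.563% ± 0.0309 in SO-L1 and 0.573% ± 0.0286 in ASO-Ctr (SD, n = 4 each). The fewest counts for any member in a library were those of DNAJB9 in ASO-Ctr 1, with 274. The 12 markers of pluripotent stem cells, among them POU5F1 and LIN28A, summed to 9741 to 10472 CPM in ASO-L1, 10989.6 to 11582 CPM in SO-L1 and 11069 to 12059 CPM in ASO-Ctr, and none was at 0. Libraries with the same number deviated together in all groups, with correlations between 0.43 and 0.54 across genes. Libraries of the other number in the same set did so to a like degree, at 0.43 to 0.52. The 4 numbers also fell into a pair of sets, numbers 3 and 4 and numbers 1 and 2, a division read from the data and not from the labels. The division was not even in all groups. Between libraries 1 and 2 the chi-square per degree of freedom over genes was 2.02 in ASO-L1, 2.72 in SO-L1 and 18.2 in ASO-Ctr, and between libraries 3 and 4 it was 10.7 in ASO-L1, 1.98 in SO-L1 and 1.87 in ASO-Ctr. Mitochondrial genes took 8.81% of counts in library ASO-L1 3 and 6.04% in library ASO-L1 4. Among the control libraries they took 4.74% in ASO-Ctr 2 and 8.08% in ASO-Ctr 1.

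In ASO-L1 against ASO-Ctr, the degradation factor HERPUD1 and the co-chaperone DNAJB9 rose. The chaperone HSP90B1 and the disulfide isomerases PDIA4 and PDIA6 fell, and HSPA5, SDF2L1, CALR, CANX and XBP1 did not pass. In these bulk libraries fewer cells of a type and less RNA per cell cannot be told apart. By count, 2 of 10 genes passed as higher and 3 as lower by edgeR's quasi-likelihood test at an adjusted p of 0.05. Of all tested genes 22.3% passed, 11.6% higher and 10.7% lower. The median log2 fold change of the 10 genes was -0.05, against 0.00 for all tested genes (-0.00105 unrounded). All 4 ASO-L1 libraries lay above all 4 ASO-Ctr libraries for 2 of the 10 genes (13.3% of all genes) and below them for 3 (12.2%). The 5 calls held whichever 1 of these 8 libraries was left out, ASO-Ctr 2 and ASO-L1 3 and 4 included, with DNAJB9 reaching the highest p (edgeR adjusted p = 0.0452). With the library number as a block, CALR was added and 2 genes were higher and 4 lower, while 45.0% of all genes passed, 22.5% higher and 22.5% lower. Within numbers 3 and 4 alone, 2 passed as higher and 4 as lower (17.9% and 17.0% of all genes), and within numbers 1 and 2 alone 1 was higher and 4 lower (17.6% and 17.6%).

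HERPUD1 encodes a membrane protein of the ER that takes part in ER-associated degradation. It had 32.7, 30.01, 36.8 and 35.6 CPM in ASO-L1 libraries 1 to 4, 19.8, 19.3, 22.3 and 19.5 CPM in SO-L1, and 16.3, 18.5, 20.4 and 20.1 CPM in ASO-Ctr. The lowest ASO-L1 library stood above the highest library of both other groups. HERPUD1 averaged 33.8 ± 3.05 CPM in ASO-L1, 20.2 ± 1.41 CPM in SO-L1 and 18.8 ± 1.88 CPM in ASO-Ctr (SD, n = 4 each). It was 1.79-fold higher in ASO-L1 than in ASO-Ctr, a log2 fold change of 0.84 ± 0.09 (SE; 95% interval 0.66 to 1.03; edgeR adjusted p = 2.23e-05). The log2 fold change was 0.84 within numbers 3 and 4 and 0.84 within numbers 1 and 2.

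DNAJB9, also called ERdj4, is a partner of the chaperone HSPA5 and helps to keep IRE1 inactive. It had 16.0, 16.3, 18.3 and 21.3 CPM in ASO-L1, 15.2, 14.2, 15.8 and 13.7 CPM in SO-L1, and 13.5, 14.9, 14.2 and 14.03 CPM in ASO-Ctr. Every ASO-L1 library was above every control library, by a narrow margin for libraries 1 and 2. DNAJB9 was 1.27-fold higher in ASO-L1 than in ASO-Ctr (log2 0.34 ± 0.09 SE, 95% interval 0.15 to 0.54, edgeR adjusted p = 0.0159). Within numbers 3 and 4 the log2 fold change was 0.49 (edgeR adjusted p = 1.46e-06), and within numbers 1 and 2 it was 0.18 and did not pass (edgeR adjusted p = 0.110). The difference between the sets, 0.31 ± 0.12 (SE), did not pass either (edgeR adjusted p = 0.339). DNAJB9 shares 183 exon bases with THAP5 and 99 with PNPLA8 on the opposite strand in the GENCODE annotation, and whether counting used the strand is not given in the sources used here.

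HSP90B1 encodes GRP94, the HSP90 family chaperone of the ER, which folds client proteins such as integrins and Toll-like receptors. It had 1191, 1208, 1321 and 1407 CPM in ASO-L1, 1600.2, 1549, 1640.3 and 1625 CPM in SO-L1, and 1557, 1629.5, 1632 and 1691 CPM in ASO-Ctr. The highest ASO-L1 library was below the lowest control library. HSP90B1 averaged 1282 ± 101 CPM in ASO-L1, 1604 ± 40.0 CPM in SO-L1 and 1627 ± 54.6 CPM in ASO-Ctr (SD, n = 4 each). It fell by 21.2% in ASO-L1 against ASO-Ctr (log2 -0.34 ± 0.05 SE, 95% interval -0.46 to -0.23, edgeR adjusted p = 3.97e-04). The fall was -0.28 within numbers 3 and 4 and -0.41 within numbers 1 and 2 on the log2 scale, and the sets did not differ by the test (edgeR adjusted p = 0.490). The pseudogene rows HSP90B2P and HSP90B3P held 60 and 3 counts over all 12 libraries. HSP90B1 shares 131 exon bases with MIR3652 on the same strand, and 121 with C12orf73 and 105 with TTC41P on the opposite strand.

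PDIA4, also called ERp72, and PDIA6, also called P5, are thioredoxin-like isomerases that form and rearrange disulfide bonds. PDIA4 had 352, 339.8, 379 and 383 CPM in ASO-L1, 395, 419, 448 and 439 CPM in SO-L1, and 427, 448, 457 and 459.7 CPM in ASO-Ctr. All ASO-L1 libraries were below all control libraries, and PDIA4 fell by 18.9% in ASO-L1 against ASO-Ctr (log2 -0.30 ± 0.05 SE, edgeR adjusted p = 9.63e-04). PDIA6 had 303, 292, 303 and 320.4 CPM in ASO-L1, 329, 335, 333 and 332 CPM in SO-L1, and 333, 354, 339 and 347 CPM in ASO-Ctr. The groups again did not overlap, and PDIA6 fell by 11.3% (log2 -0.17 ± 0.04 SE, edgeR adjusted p = 0.00378). Within numbers 3 and 4 the log2 changes were -0.26 for PDIA4 and -0.13 for PDIA6, and within numbers 1 and 2 they were -0.34 and -0.21, each past the threshold. PDIA6 shares 1033 exon bases with ATP6V1C2 on the opposite strand.

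CALR encodes calreticulin and CANX calnexin, the lectin chaperones that bind newly made glycoproteins. CALR had 733, 749.9, 917 and 952 CPM in ASO-L1, 746, 821, 981 and 989 CPM in SO-L1, and 809, 872, 988 and 1001 CPM in ASO-Ctr. The groups overlapped widely, yet in each of the 4 numbers the ASO-L1 library was below the ASO-Ctr library and below the SO-L1 library. The log2 fold change in ASO-L1 against ASO-Ctr was -0.13 ± 0.11 (SE, edgeR adjusted p = 0.459) without the block. With the library number as a block it was -0.13 ± 0.03 and passed (edgeR adjusted p = 1.30e-04), and it also passed within numbers 3 and 4 at -0.09 (edgeR adjusted p = 0.0445) and within numbers 1 and 2 at -0.18 (edgeR adjusted p = 0.00258). CANX had 1144, 1131, 1094 and 1152 CPM in ASO-L1, 1166, 1156, 1155 and 1122 CPM in SO-L1, and 1153, 1226, 1144 and 1161 CPM in ASO-Ctr. Its groups overlapped, and its log2 fold change of -0.05 (95% interval -0.12 to 0.02, edgeR adjusted p = 0.326) did not pass, nor did it with the block (edgeR adjusted p = 0.130).

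HSPA5 encodes BiP, the HSP70 chaperone of the ER that also holds the stress sensors inactive. It had 942, 904, 1092 and 1136 CPM in ASO-L1, 941, 957, 1134 and 1119 CPM in SO-L1, and 953, 979, 1111 and 1113 CPM in ASO-Ctr. The groups lay on top of each other, and in all 3 the libraries numbered 3 and 4 were the high ones. The log2 fold change in ASO-L1 against ASO-Ctr was -0.03 (95% interval -0.22 to 0.16, edgeR adjusted p = 0.863). With the block it was -0.03 ± 0.03 (SE, edgeR adjusted p = 0.363).

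SDF2L1, a component of BiP-containing chaperone complexes, had 17.2, 18.4, 23.5 and 22.3 CPM in ASO-L1, 18.7, 16.9, 23.4 and 25.0 CPM in SO-L1, and 15.3, 19.9, 24.5 and 24.0 CPM in ASO-Ctr. Its groups overlapped and the same numbers were high, with a log2 fold change of -0.04 (95% interval -0.39 to 0.31, edgeR adjusted p = 0.890). XBP1 had 145, 133, 134 and 141 CPM in ASO-L1, 138, 146, 139.9 and 139 CPM in SO-L1, and 141, 145, 142 and 137 CPM in ASO-Ctr. XBP1 stayed in a narrow range in all 12 libraries, its groups overlapped, and its log2 fold change of -0.03 (95% interval -0.12 to 0.05, edgeR adjusted p = 0.639) did not pass.

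**Figure D2:**
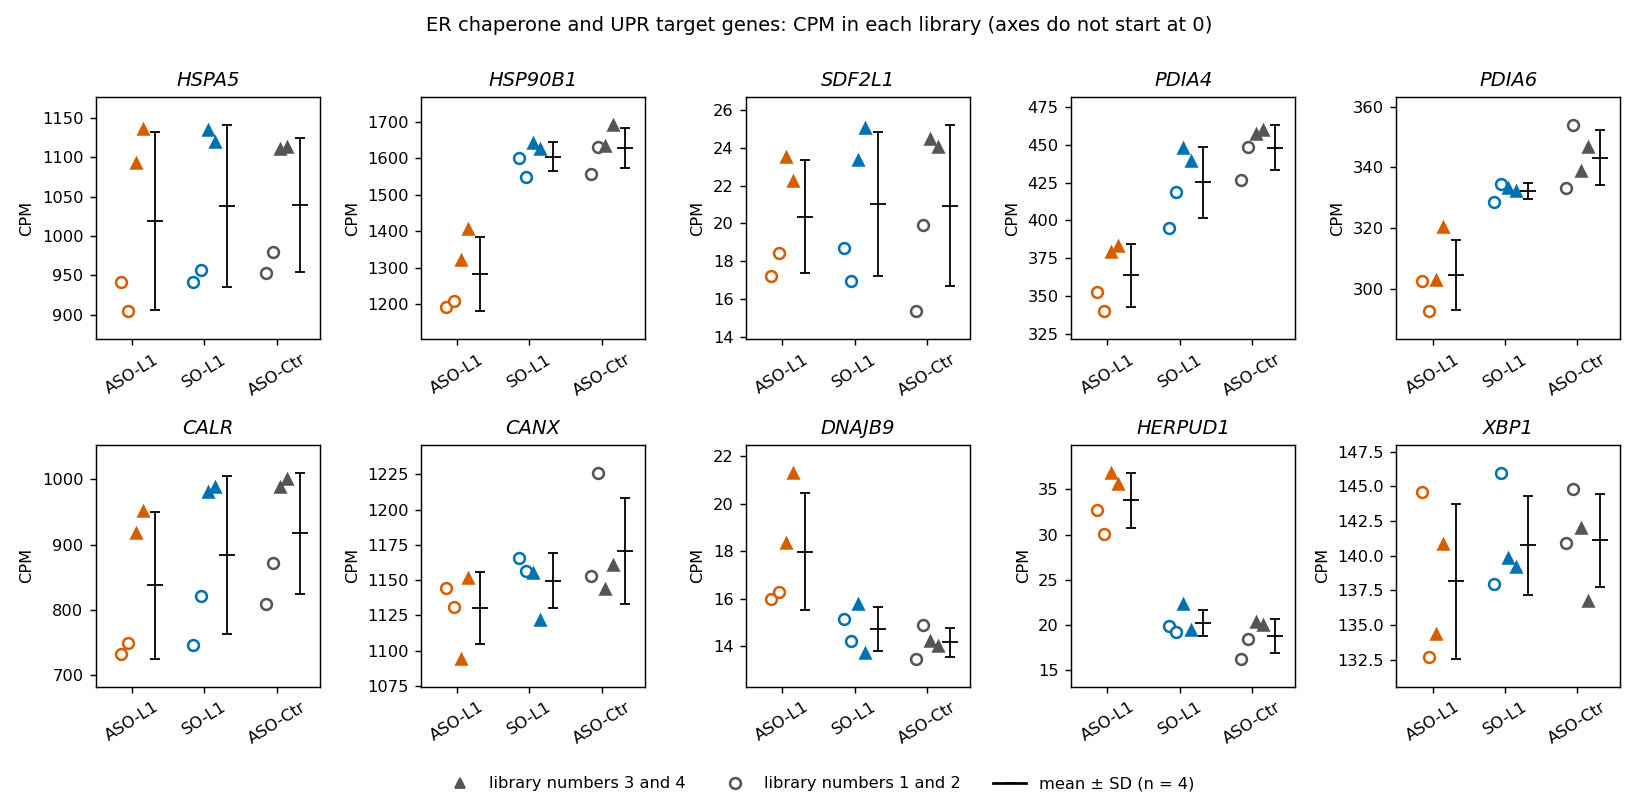
CPM of each of the 10 genes in the 12 libraries, by oligo group on the x axis. Triangles are libraries numbered 3 and 4, open circles libraries numbered 1 and 2, and black bars the mean ± SD of 4 libraries; the y axes do not start at 0. HERPUD1 stands between 30.01 and 36.8 CPM in ASO-L1 against 16.3 to 20.4 CPM in ASO-Ctr, while HSPA5, CALR and SDF2L1 split by library number in every group.

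The comparison of ASO-L1 with SO-L1 uses the same ASO-L1 libraries and sets them against the other control oligo. The genes that passed were HERPUD1 and DNAJB9, which rose, and HSP90B1, PDIA4 and PDIA6, which fell. They are 2 and 3 of the 10 genes, while 20.3% of all tested genes passed, 10.7% higher and 9.64% lower. All ASO-L1 libraries stood above all SO-L1 libraries for 2 of the 10 genes (12.7% of all genes) and below them for 3 (11.5%). HERPUD1 was 1.67-fold higher (log2 0.74 ± 0.09 SE, edgeR adjusted p = 7.30e-05) and DNAJB9 1.22-fold higher (log2 0.29 ± 0.09, edgeR adjusted p = 0.0401). HSP90B1 fell by 20.1% (log2 -0.32 ± 0.05, edgeR adjusted p = 7.50e-04), PDIA4 fell by 14.5% (log2 -0.23 ± 0.05, edgeR adjusted p = 0.00712) and PDIA6 fell by 8.31% (log2 -0.13 ± 0.04, edgeR adjusted p = 0.0247). The median log2 fold change of the 10 genes was -0.04, against 0.00 for all genes (-0.00287 unrounded).

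Calls for HERPUD1, HSP90B1 and PDIA4 in ASO-L1 against SO-L1 held when any 1 of these 8 libraries was left out. DNAJB9 no longer passed without SO-L1 library 1, 2 or 4 (edgeR adjusted p = 0.0634, 0.0979 and 0.102) or without ASO-L1 library 3 or 4 (edgeR adjusted p = 0.0880 and 0.112). PDIA6 no longer passed without SO-L1 library 2, 3 or 4 (edgeR adjusted p = 0.0628, 0.0536 and 0.0504) or without ASO-L1 library 2 or 3 (edgeR adjusted p = 0.0630 and 0.0607). With the library number as a block both passed (edgeR adjusted p = 0.00173 for DNAJB9 and 6.78e-04 for PDIA6), 2 higher and 4 lower genes were called among the 10, and 43.4% of all genes passed, 21.6% higher and 21.7% lower. CALR, at log2 -0.08 ± 0.11 without the block (edgeR adjusted p = 0.690), passed with it (log2 -0.08 ± 0.03, edgeR adjusted p = 0.0233). The log2 changes within numbers 3 and 4 were 0.80 for HERPUD1, 0.42 for DNAJB9, -0.25 for HSP90B1, -0.21 for PDIA4 and -0.09 for PDIA6. Within numbers 1 and 2 they were 0.68, 0.14, -0.39, -0.23 and -0.16 in the same order of genes, with DNAJB9 (edgeR adjusted p = 0.242) not passing there and PDIA6 (edgeR adjusted p = 0.0640) not passing in numbers 3 and 4. By count, 2 higher and 2 lower genes were called among the 10 in numbers 3 and 4 (17.6% and 16.0% of all genes), and 1 higher and 3 lower ones in numbers 1 and 2 (17.3% and 16.9%).

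The authors' deposited table for ASO-L1 against SO-L1 holds 21414 genes, of which 5371 pass an adjusted p of 0.05. In the authors' deposited table HERPUD1 (log2 0.73) and DNAJB9 (0.28) passed as higher, and HSP90B1 (-0.33), PDIA4 (-0.23) and PDIA6 (-0.13) as lower. CALR had -0.08 and an adjusted p of 0.165 in the authors' deposited table.

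In SO-L1 against ASO-Ctr 0 of the 10 genes passed, and 0.0290% of all tested genes did. None of the 10 reached an unadjusted p of 0.05 by edgeR, and 0 passed by DESeq2, by limma-voom or with the library number as a block (1.41% of all genes). By DESeq2 52 genes passed. The shares of all genes at the unadjusted threshold and by limma-voom are not given here. HERPUD1 had the highest log2 fold change of the 10, 0.10, with a 95% interval of -0.08 to 0.29, and DNAJB9 had 0.05 with an interval of -0.14 to 0.25. PDIA4, PDIA6 and CALR were lower in SO-L1 in 4 of 4 numbers, at -0.08, -0.05 and -0.05, and the interval of PDIA4 was -0.19 to 0.03. SDF2L1 had the widest interval, -0.35 to 0.36. These intervals bound the difference between the control oligos and do not show that the oligos act alike.

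**Figure D3:**
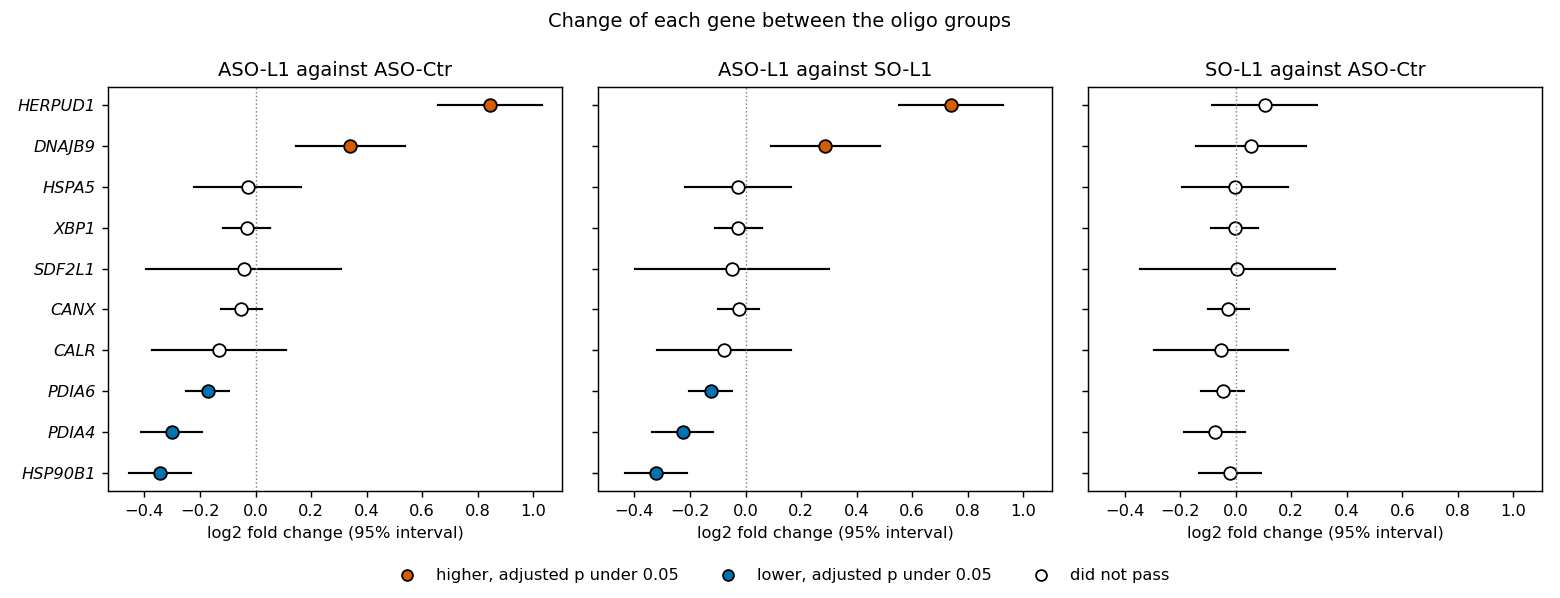
Log2 fold change of each gene (x axis) with its 95% interval in the 3 comparisons, genes down the page in the order of ASO-L1 against ASO-Ctr. Filled points passed an adjusted p of 0.05 (edgeR), orange higher and blue lower. HERPUD1 is at 0.84 and 0.74 in the comparisons with ASO-L1, HSP90B1 at -0.34 and -0.32, and no gene is filled in SO-L1 against ASO-Ctr.

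The library numbers were a second axis along which these genes differed. A test of the 4 numbers with the oligo group in the model called HSPA5, CALR, SDF2L1, HSP90B1, PDIA4 and HERPUD1, 6 of the 10 genes, while 45.7% of all tested genes passed. HSPA5 lay at 1092 to 1136 CPM in the 6 libraries numbered 3 and 4, against 904 to 979 CPM in the 6 numbered 1 and 2 (number term, edgeR adjusted p = 8.27e-10). CALR lay at 917 to 1001 CPM in numbers 3 and 4, against 733 to 872 CPM in numbers 1 and 2 (edgeR adjusted p = 3.07e-12). SDF2L1 lay at 22.3 to 25.0 CPM in numbers 3 and 4, against 15.3 to 19.9 CPM in numbers 1 and 2 (edgeR adjusted p = 2.27e-07).

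For HSPA5, CALR and SDF2L1 the sets did not overlap over the 12 libraries, with log2 ratios of mean CPM, numbers 3 and 4 over numbers 1 and 2, of 0.24, 0.30 and 0.42. Of all tested genes 9.17% had all 6 libraries of numbers 3 and 4 above the other 6. The ratios were smaller for HERPUD1 at 0.18, PDIA4 at 0.11 and HSP90B1 at 0.09, and HSP90B1 did not pass the number test without ASO-L1 library 4 (edgeR adjusted p = 0.121). DNAJB9, PDIA6, XBP1 and CANX, at 0.11, 0.02, -0.02 and -0.03, did not pass. What the libraries of a number share is not stated in the labels, and each number holds 1 library of each group.

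The 12 fibroblast and feeder markers, led by COL1A2, COL1A1 and THY1, moved with the sets and summed to 384 to 435 CPM in numbers 3 and 4, against 257 to 342 CPM in numbers 1 and 2. The 9 primed pluripotency markers summed to 566 to 603 CPM in numbers 3 and 4, against 511 to 567 CPM in numbers 1 and 2. THY1 is in both lists, so the sums are not separate observations. It ran between 46.4 and 88.1 CPM in SO-L1 and between 57.3 and 98.8 CPM in ASO-Ctr. Of all tested genes 45.7% passed the number test. So did 17 of 20 targets of ATF4 and the PERK branch and 12 of 20 other ER chaperones. The other lists had 6 of 15 stress sensors and transcription factors, 10 of 23 isomerases and oxidases, 13 of 27 degradation genes and 12 of 30 translocon genes passing. The part of the fibroblast and primed markers in the set difference of HSPA5, CALR and SDF2L1 was not tested. In the authors' deposited batch-corrected log2 values the means of the sets differed by at most 0.00571 for each of the 10 genes, that of SDF2L1, while the uncorrected log2 CPM of SDF2L1 differed by 0.42. The effect of ASO-L1 did not pass a test for a difference between the sets in any of the 10 genes, against 0.778% of all genes in the comparison with ASO-Ctr and 1.76% in that with SO-L1. The smallest adjusted p in the 10 genes was 0.294 (edgeR, DNAJB9, against SO-L1).

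**Figure D4:**
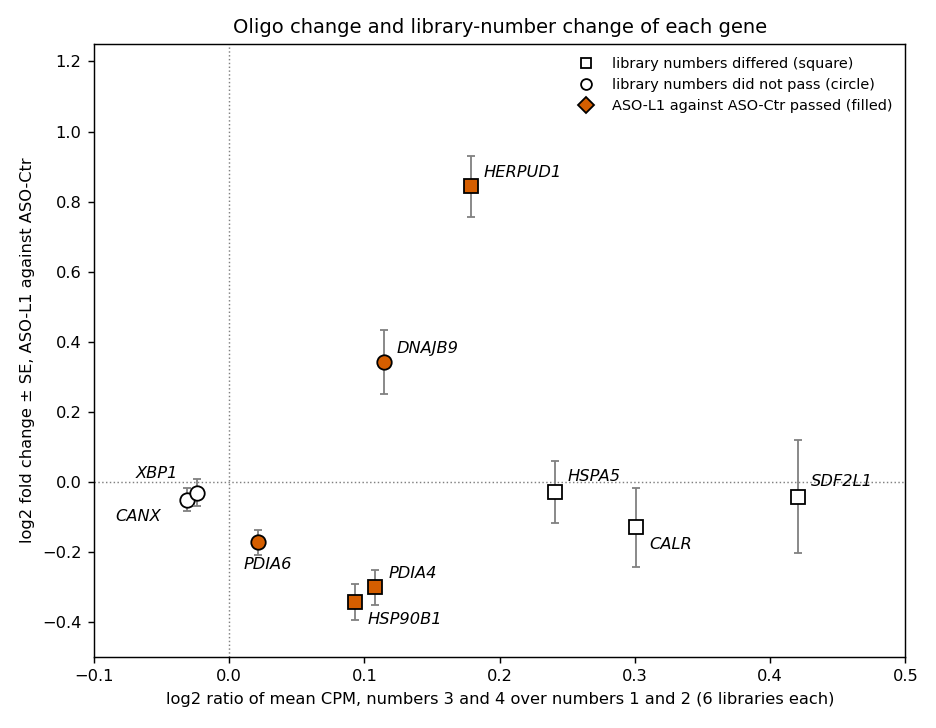
For each gene, the log2 ratio of mean CPM of numbers 3 and 4 over numbers 1 and 2 (x axis, 6 libraries each) against the log2 fold change ± SE of ASO-L1 against ASO-Ctr (y axis). Squares passed the test of library number and filled symbols passed the oligo test. HSPA5, CALR and SDF2L1 lie at 0.24 to 0.42 on the x axis and are open, and HERPUD1 lies at 0.18 and 0.84.

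Other genes of the same pathways were read from 6 lists. Their counts stand against 11.6% higher and 10.7% lower among all genes in ASO-L1 against ASO-Ctr, and 22.5% and 22.5% with the block. Among ER stress sensors and transcription factors, 3 of 15 were higher and 3 lower in ASO-L1 against ASO-Ctr (4 and 6 with the block). ATF4, the transcription factor translated when eIF2alpha is phosphorylated, averaged 341 ± 8.85 CPM in ASO-L1 and 259.7 ± 7.01 CPM in ASO-Ctr (log2 0.39, edgeR adjusted p = 6.86e-06). DDIT3, the stress factor CHOP, averaged 28.97 ± 4.49 CPM in ASO-L1 and 10.1 ± 2.28 CPM in ASO-Ctr (log2 1.52, edgeR adjusted p = 2.52e-05). CREB3L2 and ATF6B, ER-anchored transcription factors, fell by 0.46 and 0.29 on the log2 scale. NFYA, a subunit of the factor that binds CCAAT boxes, was lower at -0.20 (edgeR adjusted p = 0.00426). The sensor genes ERN1 (IRE1), EIF2AK3 (PERK) and ATF6 did not pass, at 0.01, -0.02 and -0.19.

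Targets of ATF4 and the PERK branch had 10 of 20 genes higher and 0 lower (12 and 3 with the block), with a median log2 fold change of 0.23, against 0.00 for all tested genes. ATF5 averaged 95.4 ± 1.27 CPM in ASO-L1 and 24.9 ± 1.80 CPM in ASO-Ctr (log2 1.94, edgeR adjusted p = 6.84e-09). PPP1R15A, the eIF2alpha phosphatase subunit GADD34, averaged 108 ± 8.94 CPM in ASO-L1 and 40.6 ± 0.828 CPM in ASO-Ctr (log2 1.41, edgeR adjusted p = 1.05e-08). ATF3 was higher by 1.49 and the pseudokinase TRIB3 by 1.27 on the log2 scale. The other 10 genes did not pass. MTHFD2, ASNS, CHAC1, PSAT1 and PHGDH were at 0.28, 0.13, 0.11, 0.05 and 0.05. VLDLR, SHMT2, CTH, DDIT4 and SLC7A11 were at -0.02, -0.07, -0.18, -0.27 and -0.30. At an unadjusted p of 0.05 this list had 10 genes, the same number that passed the adjusted test. The share of all genes at that unadjusted threshold was not counted.

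Other ER chaperones and co-chaperones had 1 of 20 genes higher and 4 lower (3 and 6 with the block). SEC63, a J-domain protein of the translocon, was higher by 0.18 on the log2 scale, while the folding sensor UGGT2 fell by 0.33, the BiP co-chaperone DNAJC3 by 0.26 and SIL1, a nucleotide exchange factor of BiP, by 0.37. DNAJC3 was also low in SO-L1, at -0.28 against ASO-Ctr (edgeR adjusted p = 0.0884), and stood at 0.02 in ASO-L1 against SO-L1 (edgeR adjusted p = 0.811). SIL1 was at -0.51 in numbers 3 and 4 and at -0.23 in numbers 1 and 2, where it did not pass (edgeR adjusted p = 0.0874). The other 15 chaperones did not pass against ASO-Ctr and lay between -0.19 (TXNDC16) and 0.16 (SDF2). Among them HYOU1, DNAJB11, CRELD2 and MANF were at -0.04, 0.02, -0.02 and -0.01. Among 23 other isomerases and oxidases 2 were higher and 3 lower (5 and 9 with the block). PDIA2 averaged 1.64 ± 0.127 CPM in ASO-L1 and 0.704 ± 0.225 CPM in ASO-Ctr (log2 1.21, edgeR adjusted p = 0.00240). The transmembrane thioredoxin-related proteins moved in both directions, with TMX4 higher by 0.22 and TMX2 and TMX1 lower, at -0.33 and -0.20 on the log2 scale. TMX4 did not pass in numbers 3 and 4 alone (0.15, edgeR adjusted p = 0.0585).

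ER-associated degradation had 3 of 27 genes higher and 2 lower, and 11 higher and 5 lower with the block. AUP1 and the ubiquitin ligase RNF139 were higher by 0.39 and 0.26 on the log2 scale and the ligase RNF5 fell by 0.18. SELK was higher by 0.23 (edgeR adjusted p = 0.0195) but did not pass without ASO-L1 library 4 or ASO-Ctr library 1 (edgeR adjusted p = 0.0603 and 0.0585). Of 30 genes of the translocon, signal peptidase and glycosylation, 3 were higher and 6 lower (6 and 9 with the block). SEC61A2 and SRPR, of the translocon and the signal recognition particle receptor, were higher by 0.31 and 0.16, and the oligosaccharyltransferase subunits TUSC3 and MAGT1 fell by 0.25 and 0.20 on the log2 scale. TUSC3 was lower still in SO-L1, at -0.38 against ASO-Ctr (edgeR adjusted p = 0.0543), and stood at 0.13 in ASO-L1 against SO-L1 (edgeR adjusted p = 0.134).

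**Figure D5:**
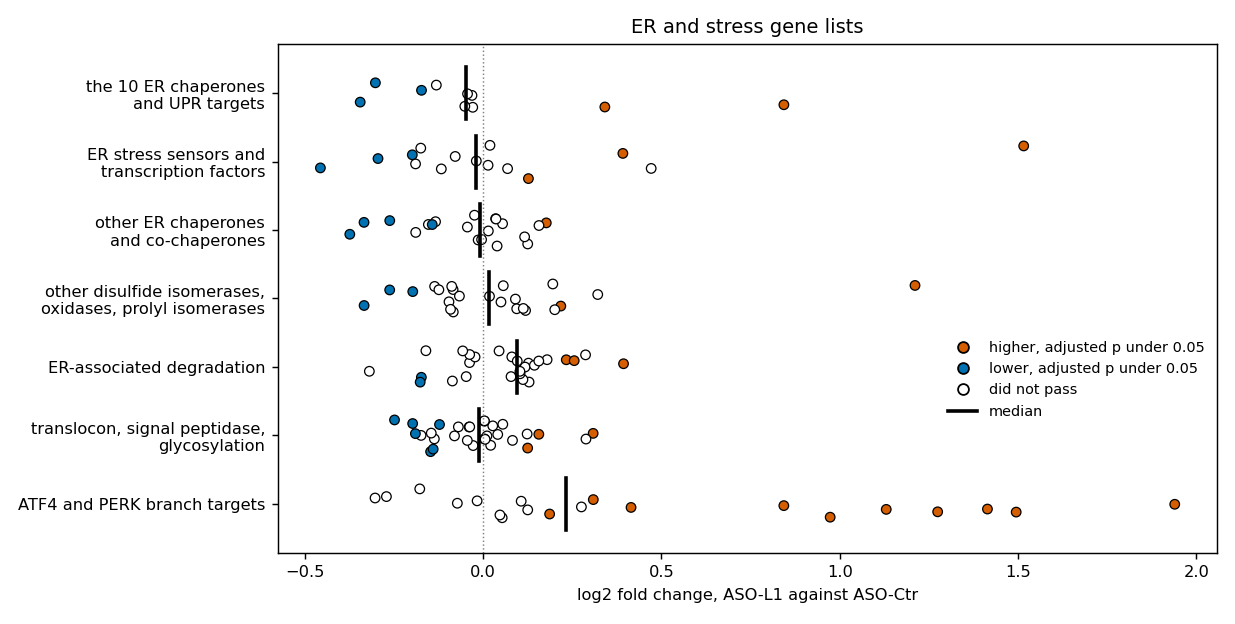
Log2 fold change in ASO-L1 against ASO-Ctr (x axis) of the 10 genes and of 6 other ER and stress lists, 1 point a gene, with the median as a black line. Orange points were higher and blue points lower past an adjusted p of 0.05 (edgeR). The ATF4 and PERK branch targets have a median of 0.23 and 10 orange points, and the 10 ER chaperones and UPR targets a median of -0.05 with 2 orange and 3 blue points.

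Against SO-L1, ASO-L1 had 8 of the 20 ATF4 and PERK branch targets higher and 1 lower (11 and 3 with the block). ATF5, PPP1R15A, ATF3 and TRIB3 were higher by 1.91, 1.16, 1.26 and 1.19 on the log2 scale. The gene called lower without the block was SLC7A11, at -0.44 (edgeR adjusted p = 0.0439). ATF4 and DDIT3 were higher by 0.37 and 1.35, and CREB3L2, ATF6B and NFYA were lower, at -0.35, -0.23 and -0.17. NFYA did not pass without the filter on low counts (edgeR adjusted p = 0.0729). The list counts stand here against 10.7% higher and 9.64% lower among all genes, and 21.6% and 21.7% with the block. Sensors and transcription factors had 2 of 15 higher and 3 lower (4 and 5 with the block), other chaperones 1 and 2 of 20 (3 and 3), other isomerases 2 and 2 of 23 (5 and 5), degradation genes 4 and 0 of 27 (9 and 5), and the translocon list 3 and 1 of 30 (8 and 6).

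Among those genes SEC63 was at 0.19, UGGT2 at -0.32, SIL1 at -0.34, TMX4 at 0.27, PDIA2 at 1.02 and TMX2 at -0.30 on the log2 scale of ASO-L1 against SO-L1. AUP1 and RNF139 were at 0.39 and 0.23, and SEC61A2 and SRPR at 0.33 and 0.14, SRPR not passing without the filter on low counts (edgeR adjusted p = 0.110). The sulfhydryl oxidase QSOX1, at -0.26, did not pass without ASO-L1 library 4 (edgeR adjusted p = 0.0506), and MAGT1, at -0.20, did not without ASO-L1 library 3 (edgeR adjusted p = 0.0519). The calls of 3 further genes were near the threshold. UBE2J1, a ubiquitin-conjugating enzyme of the ER at 0.31, did not pass whichever 1 of the 8 libraries was left out (edgeR adjusted p up to 0.126), with values of 0.25 to 0.34. FAF2, a VCP-binding factor at 0.22, did not pass without SO-L1 library 1 or 2 or ASO-L1 library 1, 3 or 4 (up to 0.0903), with values of 0.17 to 0.26. SEC62, a translocon protein at 0.13, did not pass without SO-L1 or ASO-L1 library 1, 2 or 4 (edgeR adjusted p up to 0.103), with values of 0.11 to 0.16, nor without the filter on low counts (edgeR adjusted p = 0.129). Against ASO-Ctr QSOX1 and SEC62 also passed, at -0.26 and 0.13 (edgeR adjusted p = 0.0115 and 0.0346).

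In SO-L1 against ASO-Ctr none of the 6 lists had a gene past the edgeR threshold. At an unadjusted p of 0.05 the ATF4 and PERK branch list then had 3 genes, the sensors, the other chaperones and the translocon list 1 each, and the isomerases and degradation lists 0. The share of all genes at that unadjusted threshold was not counted, so these numbers have no background to be read against. With the block 4 of 20 ATF4 and PERK branch targets were higher in SO-L1, SLC3A2 among them at 0.11 (edgeR adjusted p = 0.0376), and 1 other chaperone and 1 gene of the translocon list were lower. Of all tested genes 1.41% passed with the block, in either direction. The 2 most highly expressed genes of each list included SLC3A2. The others had log2 fold changes in SO-L1 against ASO-Ctr as follows, with ATF4 at 0.02, NFYB at -0.03, HYOU1 at -0.05, SERPINH1 at -0.01, PDIA3 at -0.04, P4HB at -0.06, VCP at 0.03, UBXN4 at 0.08, GANAB at -0.03, PRKCSH at -0.04 and PSAT1 at 0.05.

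Some markers of cell state also changed in ASO-L1. The counts called against ASO-Ctr stand against 11.6% higher and 10.7% lower among all tested genes, and 22.5% and 22.5% with the block. Of 11 tested naive pluripotency markers 6 were higher in ASO-L1 than in ASO-Ctr (8 with the block, which also called 2 lower). Against SO-L1 6 were higher and 1 lower (7 and 2 with the block), while 10.7% and 9.64% of all tested genes were (21.6% and 21.7% with the block). The list summed to 693 to 800 CPM in ASO-L1, 641 to 664 CPM in SO-L1 and 626 to 673 CPM in ASO-Ctr. NLRP7 was the largest part of this sum, averaging 415 CPM in ASO-L1 and 330 CPM in ASO-Ctr. DPPA5 averaged less in ASO-L1 than in ASO-Ctr, at 94.2 against 133 CPM, as did FGF4, at 19.8 against 28.3 CPM. Of 12 pluripotent stem cell markers 5 were lower (11 with the block) and 0 higher in ASO-L1 against ASO-Ctr. Against SO-L1 3 of them were lower (9 with the block) and 0 higher. The 9 primed pluripotency markers summed to 559 to 576 CPM in ASO-L1, 511 to 583 CPM in SO-L1 and 560.2 to 603 CPM in ASO-Ctr. THY1 counts in this sum and in the fibroblast sum. Fibroblast and feeder markers summed to 341 to 435 CPM in ASO-L1, 257 to 393 CPM in SO-L1 and 272 to 409.8 CPM in ASO-Ctr, with 2 of 8 tested higher and 0 lower in ASO-L1 against ASO-Ctr (3 and 2 with the block), DCN at 0 in ASO-L1, and LUM and DCN at 0 in SO-L1. The 13 trophoblast and amnion markers summed to 11.3 to 16.7 CPM in ASO-L1, 11.2 to 13.5 CPM in SO-L1 and 10.4 to 13 CPM in ASO-Ctr. Of 4 tested trophoblast and amnion markers 2 were higher and 0 lower in ASO-L1 against ASO-Ctr. The 14 secretory endoderm markers, a cell type rich in ER, summed to 3.42 to 5.59 CPM in ASO-L1, 1.93 to 3.42 CPM in SO-L1 and 2.25 to 3.66 CPM in ASO-Ctr, with TTR at 0 in all 12 libraries. Of 5 tested endoderm markers 1 was higher and 0 lower in ASO-L1 against ASO-Ctr (2 and 0 with the block). GATA6 averaged 1.14 CPM in ASO-L1, 0.08 CPM in SO-L1 and 0.09 CPM in ASO-Ctr. The part of these markers in the changes of HERPUD1, DNAJB9, HSP90B1, PDIA4 and PDIA6 was not tested.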

How the data were processed

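The authors' deposited table gives counts per gene for 12 libraries; per the submitters' processing notes, Trim Galore 0.4.0, TopHat2 2.0.13, featureCounts of Subread 1.5.0 and build hg19 were used. The label rmDup on the deposited counts is not explained, and the strand setting of counting is not given in the sources used here. The authors also deposited batch-corrected log2 values and, for ASO-L1 against SO-L1, a table of log2 fold changes and p-values; these were used only where named. A row with no gene name held at most 3 counts per library and was left out.

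Genes were kept by filterByExpr (minimum count 10, minimum total 15), scaled by TMM and tested in R 4.3.3 with edgeR 4.0.16 (robust quasi-likelihood F test, a mean per group over all 12 libraries, two-sided, Benjamini-Hochberg adjustment over 17228 genes, threshold 0.05). SE is the absolute log2 fold change over the square root of F. DESeq2 1.42.0, limma-voom 3.58.1, other scalings, no filter, subsets of numbers and leaving out each library were alternatives. The method was also run on counts simulated with no library-number effect, so that run does not cover the differences between numbers. Same-numbered libraries of different groups correlated at 0.43 to 0.54 in their deviations from group means, every pair over 0.1. Libraries of the other number in the same set reached 0.43 to 0.52, so these values show the sets and not a pairing by single number. The number was used as a block in an alternative fit, and blocked values are printed where they change a member's call or a list's count.

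The 10 genes and all lists were chosen with earlier results of these data known. From each pathway list, up to 4 genes past the threshold with the smallest p are named per comparison, or, where none passed, the 2 with the highest mean log2 CPM. Some further genes, most of which did not pass, are named beside them. Motifs were counted in RefSeq promoter windows (GRCh38.p14). Exon overlaps come from GENCODE. CALR and CANX also share 270 exon bases with AC092069.1 and 150 with CBY3, in that order, on the opposite strand.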

Additional observations from a re-analysis of the deposited data

How the results depend on the processing

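The 5 member calls in ASO-L1 against ASO-Ctr held under RLE scaling, library totals, DESeq2, limma-voom, no filter, only the 2 groups compared, the replicate block and each library left out; with numbers 1 and 2 only, DNAJB9 did not pass and 1 member was higher. In ASO-L1 against SO-L1 1 member was higher with library totals, no filter, only the 2 groups compared, or numbers 1 and 2 only, DNAJB9 being lost each time (edgeR adjusted p = 0.0518, 0.0549, 0.0831 and 0.242). PDIA6 was lost there without the filter (edgeR adjusted p = 0.103).

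With the replicate block 7747, 7469 and 243 genes changed in ASO-L1 against ASO-Ctr, ASO-L1 against SO-L1 and SO-L1 against ASO-Ctr, against 3847, 3497 and 5 without it; apart from CALR it changed no member's call. In the same order 6103, 5861 and 201 genes changed in numbers 3 and 4 only, and 6045, 5863 and 124 in numbers 1 and 2 only. SO-L1 against ASO-Ctr gave 8 genes with library totals, 8 with no filter and 52 by DESeq2. The causes were not tested.

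Signs turned only for members that did not pass. In SO-L1 against ASO-Ctr SDF2L1 had log2 -0.00177 with the block, -0.0124 in numbers 3 and 4 and -0.00455 in numbers 1 and 2; HSPA5 had 0.00215 with library totals, 0.00232 with no filter and 0.0137 in numbers 3 and 4; XBP1 had 8.73e-05 with library totals and 1.05e-05 with no filter. In ASO-L1 against ASO-Ctr SDF2L1 had 1.86e-04 in numbers 1 and 2 and HSPA5 0.00587 in numbers 3 and 4, and in ASO-L1 against SO-L1 SDF2L1 had 0.00473 in numbers 1 and 2.

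Leaving out 1 library at a time gave 3131 to 3413, 2741 to 3149 and 5 to 7 changed genes in the 3 comparisons in that order. Members higher were 2 to 2, 1 to 2 and 0 to 0, and lower 3 to 3, 2 to 3 and 0 to 0. In ASO-L1 against ASO-Ctr HSPA5 ran between -0.0879 and 0.0177 and SDF2L1 between -0.164 and 0.0319. In ASO-L1 against SO-L1 HSPA5 ran between -0.0856 and 0.0203 and SDF2L1 between -0.139 and 0.0439. In SO-L1 against ASO-Ctr HSPA5 ran between -0.0475 and 0.0421, XBP1 between -0.0219 and 0.00918, SDF2L1 between -0.114 and 0.0952 and CALR between -0.112 and 0.0198. The library-number test called 7163 to 7954 genes and 5 to 6 members. Genes whose change differed between the sets numbered 74 to 253, 100 to 549 and 0 to 32, from 134, 303 and 0, and no member was among them. DNAJB9 had the fewest counts of the members, at least 274 per library.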
